A study of Mus musculus with 165 samples.

Results

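Genes that encode the protein cargo of neutrophils were followed through 4 maps of chromosome compartments. The set held 8 genes, Mpo, Elane, Ltf, Camp, Ngp, Lcn2, Mmp9 and S100a8, listed by name. Each gene was represented by the 25 kb bins that start within 100 kb of its position on the mouse genome build mm9. This gave 8 bins for each gene and 9 for Camp and Elane, or 66 of the 100644 bins with a value in all 4 maps. The bins also hold neighbouring genes, so a value belongs to the neighbourhood of the gene and not to the gene alone.

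Neutrophils pack their antimicrobial proteins into granules that form in order as the cell matures. Primary or azurophil granules, filled at the promyelocyte stage, hold myeloperoxidase and elastase. Secondary or specific granules, filled later, hold lactoferrin, the cathelicidin precursor and lipocalin 2, and tertiary granules hold gelatinase. S100a8 was grouped with these genes by name, although its product is mainly a cytosolic protein that pairs with S100a9 to form calprotectin. Active genes usually lie in compartment A and silent chromatin in compartment B, which are regions that contact their own kind across the nucleus. A rise in intracellular calcium is one of the signals on which neutrophils release their granules.

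The cells were ECOMG cells, a GM-CSF-dependent line of mouse myeloid progenitors from strain C57BL/6. All 4 groups shared the genotype human E2A_ER_Pbx1b, wild type, a fusion protein whose activity in ECOMG cells depends on estradiol. Progenitors were kept undifferentiated, neutrophils came from 5 days without estradiol, and activated neutrophils were exposed to the calcium ionophore A23187 at 20 uM for 15 or 30 min with calcium chloride in the medium raised to 1 mM. The study asked how calcium signals act on the architecture of the nucleus. The series lists 165 samples, of which 17 are in situ Hi-C libraries, and the other 148 were not analysed here. A single line grown in culture stands for each stage, and no expression was measured in these maps, so the cell type labels could not be checked against marker genes.

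The value in every bin is PC1, the first principal component of the matrix of Hi-C contacts, a score without a unit. On each chromosome its mean is 0 and its SD is 1 in every track. Values above 0 are called A and values below 0 B. The progenitor track pools 7 libraries and the untreated neutrophil track pools 8 libraries from 7 replicates, while the 15 min track belongs to 1 sample labelled replicate 2 and the 30 min track to 1 sample labelled replicate 1. With 1 track in each group no test was possible, the number of reads behind the values is unknown, and every spread below is over neighbouring bins, which overlap and do not count as replicates. Libraries of the unactivated cells carry a re-analysis mark in the labels, which name for them another sequencer than for the activated ones, so the effect of A23187 cannot be told apart from that batch. Time goes with replicate number between 15 and 30 min.

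The promoters of S100a8, Ltf and Mpo are shown because their neighbourhoods had the widest differences in PC1 between progenitors and untreated neutrophils, a choice made after the values were seen. The sequences are the 250 bases before the start of each gene from RefSeq, build GRCm38.p6, which is not the build of the tracks. S100a8 lies at chr3:90668821-90669070 on the plus strand, Ltf at chr9:111019042-111019291 on the plus strand and Mpo at chr11:87793534-87793783 on the plus strand. Capitals mark GAGGAA, letters bound by PU.1, and TTGCNNAA, letters bound by C/EBP factors, each searched on both strands with no overlap between them. Both families are known regulators of myeloid genes.
S100a8: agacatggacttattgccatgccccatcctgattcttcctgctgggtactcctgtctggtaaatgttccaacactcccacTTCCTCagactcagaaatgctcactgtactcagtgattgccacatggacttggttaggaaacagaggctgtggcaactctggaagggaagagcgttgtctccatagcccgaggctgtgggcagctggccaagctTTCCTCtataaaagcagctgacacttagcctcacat
Ltf: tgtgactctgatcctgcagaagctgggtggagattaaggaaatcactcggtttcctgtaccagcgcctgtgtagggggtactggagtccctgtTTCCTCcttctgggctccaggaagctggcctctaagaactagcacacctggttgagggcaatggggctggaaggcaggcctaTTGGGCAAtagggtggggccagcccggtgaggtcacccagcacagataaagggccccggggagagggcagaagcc
Mpo: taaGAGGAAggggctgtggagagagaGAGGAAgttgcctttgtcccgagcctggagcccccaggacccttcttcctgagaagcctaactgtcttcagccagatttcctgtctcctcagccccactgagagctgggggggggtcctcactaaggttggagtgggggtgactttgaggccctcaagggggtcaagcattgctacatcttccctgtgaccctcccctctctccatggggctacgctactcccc
RefSeq promoters were found for 7 of the 8 genes, all but Mmp9. GAGGAA was present in 5 of the 7 (Mpo, Elane, Ltf, Lcn2 and S100a8), beside 23.3% of 32851 promoters of the same length. TTGCNNAA was present in 3 of the 7 (Ltf, Ngp and Lcn2), beside 9.56%. The promoters of S100a8 and Mpo each held 2 copies of the first motif, at -170 to -165 and -36 to -31 for S100a8 and at -247 to -242 and -224 to -219 for Mpo, counted from the gene start. A 25 kb bin is far wider than a promoter, and PC1 says nothing of binding at these letters.

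All 8 genes lay in compartment A in all 4 tracks, before and after maturation. Their window means, the mean PC1 over the bins of a gene, ran from 0.853 to 1.62 in progenitors and from 0.959 to 1.79 in untreated neutrophils. They ran from 0.994 to 1.62 after 15 min and from 0.660 to 1.66 after 30 min. The genes of granules that fill late thus had A values already in the progenitors. Of the 66 bins, 95.5% were above 0 in progenitors, 98.5% in untreated neutrophils, 100% after 15 min and 97.0% after 30 min. Of all bins, 42.7%, 41.6%, 46.7% and 44.3% were above 0 in the same order. The median gene stood at percentile 84.7 of all equally wide windows of its own chromosome in progenitors, 92.6 in untreated neutrophils, 87.6 after 15 min and 85.1 after 30 min. The lowest gene stood at 72.5, 71.6, 72.6 and 68.5, respectively.

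**Figure D1:**
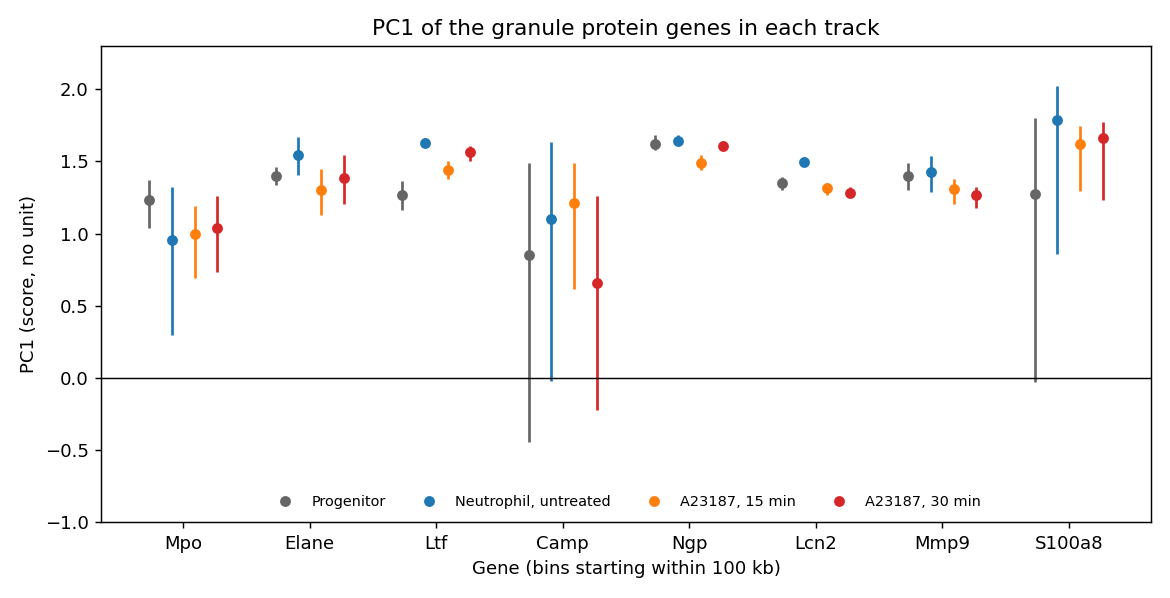
PC1 (score, no unit) of each gene in progenitors, untreated neutrophils and neutrophils after 15 or 30 min of A23187. Points are means over the bins of the gene and lines run from the lowest to the highest bin. All means lie above 0, and Camp and S100a8 are the genes with bins below 0 in at least 1 track.

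Myeloperoxidase, the haem enzyme of primary granules that makes hypochlorous acid, is encoded by Mpo at 87.61 Mb on chromosome 11. Its window mean was 1.23 in progenitors, 0.959 in untreated neutrophils, 0.994 after 15 min and 1.04 after 30 min. Mpo was highest in progenitors and was the lowest of the 8 genes in untreated neutrophils and after 15 min. From progenitor to untreated neutrophil it was lower by 0.25 or more, at -0.275, and all 8 of its bins were lower, with differences of -0.744 to -0.0222. The difference grew along the chromosome, from PC1 1.36 against 1.32 in the bin at -85 kb to 1.04 against 0.295 in the bin at 90 kb. In the bin that holds the gene position it was only -0.103, and the limit of 0.25 was not reached with a 50 kb window (-0.207) or a median over bins (-0.192). The activated window means lay between, 0.035 and 0.079 above untreated neutrophils, but in the gene's bin they were not above them, at 1.05 and 1.12 against 1.12.

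Elane encodes neutrophil elastase, a serine protease of primary granules, and lies at 79.35 Mb on chromosome 10. In RefSeq's gene order it stands between Prtn3, the gene of proteinase 3, and Cfd, the gene of complement factor D. Its window mean was 1.40 in progenitors, 1.55 in untreated neutrophils, 1.30 after 15 min and 1.38 after 30 min. Untreated neutrophils were highest, with all 9 bins above those of progenitors and above those of both activated tracks. The pair of primary granule genes thus differed in opposite directions from progenitor to untreated neutrophil, Mpo by -0.275 and Elane by 0.148. The difference between them was not tested.

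Lactoferrin, the iron-binding protein of secondary granules, is encoded by Ltf at 110.92 Mb on chromosome 9. Its window mean was 1.27 in progenitors, 1.63 in untreated neutrophils, 1.44 after 15 min and 1.57 after 30 min. Every one of its 8 bins was higher in untreated neutrophils than in progenitors, by 0.241 to 0.449. The bins ran from 1.16 to 1.36 in progenitors and from 1.60 to 1.66 in untreated neutrophils. Its chromosome percentile was 83.9 in progenitors and 97.3 in untreated neutrophils. Ngp, the neutrophilic granule protein related to cathelicidins, lies at 110.32 Mb on the same chromosome and was the highest gene of the set in progenitors. Its window means were 1.62, 1.64, 1.49 and 1.60 in progenitors, untreated neutrophils, after 15 min and after 30 min. Ngp stood at percentile 98.0 or above in every track.

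Camp, the gene of the cathelicidin precursor whose C-terminal peptide kills bacteria, lies at 109.75 Mb on chromosome 9. Its window mean was 0.853 in progenitors, 1.10 in untreated neutrophils, 1.21 after 15 min and 0.660 after 30 min. Camp was the lowest gene in progenitors and after 30 min, and it was the gene whose activated tracks stood farthest apart. In the bin that starts at the gene position the values were 1.14, 1.45, 1.36 and 0.773 in the same order, so at the gene itself 15 min was below untreated neutrophils. In the bin at -100 kb they were -0.442, -0.0207, 0.616 and -0.224, which is the step from A into the B region on that side. Camp, Ngp and Ltf lie in a single A domain, and their values are not independent of each other.

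Lipocalin 2, which binds bacterial siderophores, is encoded by Lcn2 at 32.24 Mb on chromosome 2. Its window mean was 1.35 in progenitors, 1.498 in untreated neutrophils, 1.31 after 15 min and 1.28 after 30 min, and all 8 bins were highest in untreated neutrophils. Mmp9, the gene of gelatinase B of tertiary granules, lies at 164.77 Mb on the same chromosome. Its window means were 1.40, 1.42, 1.31 and 1.26 in the same order, so progenitors and untreated neutrophils differed by 0.0223, less than the range over its bins. Lcn2 and Mmp9 had the most similar values over the 4 tracks of any pair of genes, at a Euclidean distance of 0.0906. Elane and Lcn2, on different chromosomes, came next at 0.121. Ngp and Camp, on the same chromosome, were the farthest apart at 1.36.

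S100a8 encodes a calcium-binding subunit of calprotectin, which withholds zinc and manganese from microbes, and lies at 90.47 Mb on chromosome 3. Its window mean was 1.27 in progenitors, 1.79 in untreated neutrophils, 1.62 after 15 min and 1.66 after 30 min. By window mean it ranked 5 of 8 in progenitors and was the highest gene in each of the neutrophil tracks. PC1 is scaled within each chromosome, and by percentile of its own chromosome S100a8 was not the highest. It stood at 94.5 in untreated neutrophils, 96.6 after 15 min and 93.3 after 30 min, below Ngp at 98.0, 98.5 and 99.8. In the gene's own bin the values were 1.63, 1.99, 1.65 and 1.74. At 55 kb above it they were 0.435, 1.46, 1.58 and 1.55, so the progenitor track stood apart there from the neutrophil tracks. At 80 kb the progenitor bin was just below 0, at -0.0308, and the others were 0.857, 1.29 and 1.23.

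From progenitors to untreated neutrophils, PC1 was higher at 7 of the 8 genes and lower at Mpo. The median difference over the 8 genes was 0.146, beside 0.0192 for all windows of 8 bins. The median over all bins was 0.0201, so most bins of the genome were higher as well. A difference of 0.25 or more was reached upward by 2 genes, S100a8 at 0.513 and Ltf at 0.363, beside 14.4% of all windows. Camp fell just short at 0.245. Downward it was reached by Mpo alone, beside 14.6% of all windows. For S100a8 the difference lay at percentile 95.7 of all windows, and for Ltf at 91.3. The S100a8 difference was smaller, though still above 0.25, with a 50 kb window (0.427), in the gene's bin (0.359) and as a median (0.350). It was 0.533 with every second bin and 0.514 after quantile normalization. No bin of the 66 switched compartment, beside 4.77% of all bins in either direction. A switch is a change of sign by at least 0.5 root mean squares of the first track in a run of 2 or more bins. The S100a8 bin at 80 kb crossed 0 without meeting this rule, from -0.0308 to 0.857. So did the Camp bin at -75 kb, from -0.0776 to 0.203. Signs for S100a8, Ltf, Camp, Elane, Lcn2 and Mpo were kept under each rescaling tried. Ngp and Mmp9 turned to -0.0273 and -0.0498 when the tracks were quantile-normalized to the untreated track. They were also below 0 with 200 kb windows (-0.0296 and -0.0332) and when set against bins of a like level (-0.0224 and -0.0205). Both stayed above 0 with 50 kb windows, the gene's bin, medians, every second bin and 0 at the chromosome median.

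**Figure D2:**
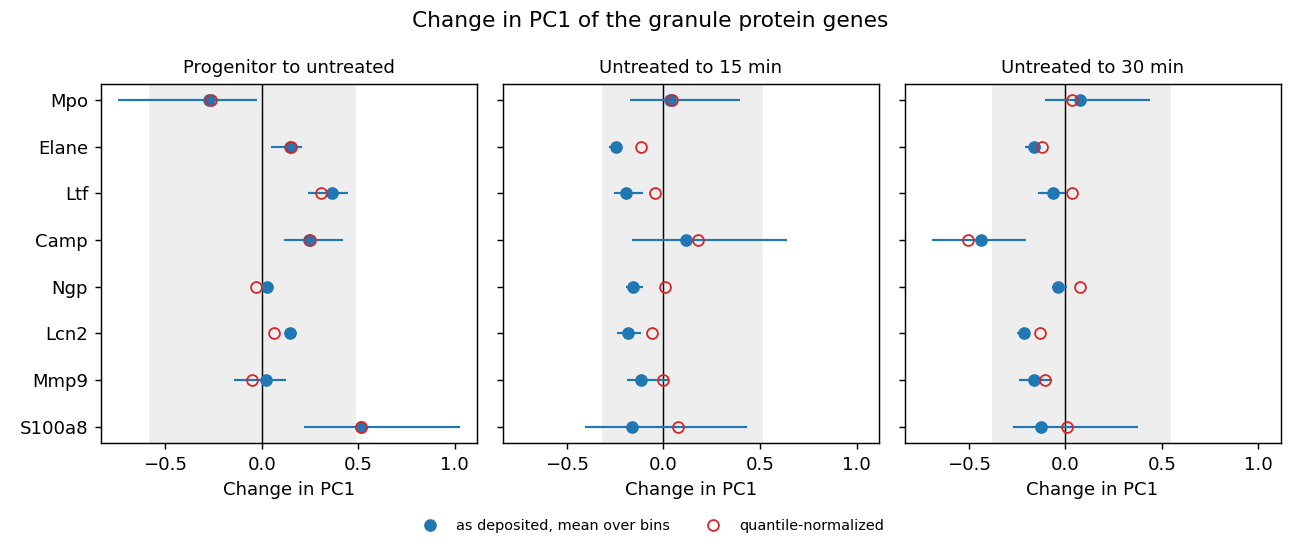
Change in PC1 (score, second track minus first) of each gene from progenitor to untreated neutrophil and from untreated neutrophil to 15 or 30 min of A23187. Filled points are means over the bins as deposited, lines run from the lowest to the highest bin change, open circles are the means after quantile normalization, and grey bands hold the 5th to 95th percentile of all windows of 8 bins. S100a8 lies outside the band at 0.513 in the first panel and Camp at -0.438 in the third.

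From untreated neutrophils to 15 min of A23187, PC1 was lower at 6 genes and higher at Camp (0.115) and Mpo (0.035). The median difference was -0.160, beside -0.0651 for all windows, so most windows were lower too. Elane had the lowest value at -0.243, and its 9 bins differed by -0.280 to -0.223. No gene was higher by 0.25, beside 16.2% of all windows, and none was lower by 0.25, beside 9.85%. Of the 66 bins 1 switched, at -100 kb from Camp and from B to A, beside 3.51% of all bins that switched in either direction. The shift downward was not kept under every scale. After quantile normalization the median was 0.00460, S100a8 turned from -0.163 to 0.0735 and Ngp from -0.156 to 0.00978, and Elane stood at -0.114. With 0 at the chromosome median, Camp and Mpo turned to -0.168 and -0.0515.

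From untreated neutrophils to 30 min, PC1 was lower at 7 genes and higher at Mpo. The median over the 8 genes was -0.142, beside -0.0397 for all windows, so most windows were lower too. The median over the genes was -0.0459 after quantile normalization and -0.0565 when set against bins of a like level. Camp was the only gene lower by 0.25, at -0.438, beside 11.2% of all windows, and its 9 bins differed by -0.688 to -0.203. No gene was higher by 0.25, beside 14.5%, and no bin switched, beside 3.62%. The Camp value was between -0.674 and -0.365 under every other window, summary and scaling tried. Elane (-0.162), Lcn2 (-0.215) and Mmp9 (-0.160) were below untreated neutrophils at both times under each scaling. For Mmp9 the 15 min value after quantile normalization was only -0.000585. Ltf (-0.0645), Ngp (-0.0394) and S100a8 (-0.125) turned to 0.0368, 0.0750 and 0.0104 after quantile normalization. The comparisons at 15 and 30 min share the untreated track and are not independent.

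Between 15 and 30 min the median difference was 0.0412, beside 0.0464 for all windows. Ltf and Ngp were higher after 30 min in all 8 of their bins, by 0.128 and 0.117 on average, and Camp was lower by 0.554 in the mean of its 9 bins. Camp was the 1 gene lower by 0.25, beside 13.0% of all windows, and none was higher, beside 7.34%. Of the 66 bins 2 switched, both at Camp and from A to B, beside 2.71% of all bins that switched in either direction. The 3 genes of the chromosome 9 domain thus differed in opposite directions within it, Ltf and Ngp upward and Camp, at the domain's edge, downward.

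Activated neutrophils were also set directly beside progenitors. At 15 min the genes higher by 0.25 were Camp (0.360) and S100a8 (0.350), or 2 of 8 beside 16.6% of all windows, and none was lower by 0.25, beside 11.9%. Of the 66 bins 3 switched, 2 at Camp and 1 at S100a8 and all from B to A, beside 3.86% of all bins that switched in either direction. S100a8 did not reach the limit with a 50 kb window (0.0997), in the gene's bin (0.0221) or as a median over bins (0.0309), and Camp did not in the gene's bin or as a median (0.224 each). Neither did with 0 at the chromosome median, at 0.197 for Camp and 0.141 for S100a8. At 30 min the genes higher by 0.25 were S100a8 (0.389) and Ltf (0.299), beside 11.3%, and none was lower, beside 8.53%. Of the 66 bins 1 switched, the outermost of S100a8 and from B to A, beside 2.83% in either direction. The S100a8 difference rested on its outer bins, and was 0.186 with a 50 kb window, 0.115 in the gene's bin and 0.0999 as a median over bins. Mpo was below progenitors at both times, by -0.240 and -0.196, and in all 8 bins at both.

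Borders, where PC1 crosses 0, are described for Camp, S100a8 and Mpo, the genes with one within 150 kb in at least 1 track. Camp had a border 50 kb below it in progenitors, 75 kb in untreated neutrophils, 250 kb after 15 min and 50 kb after 30 min. Between 100 and 200 kb below Camp the mean PC1 was -0.437, -0.0588, 0.546 and -0.439, so that region had a mean above 0 after 15 min alone. In RefSeq's order, the genes directly before Camp are Gm51691, Spink8 and Nme6. Of the 20 protein-coding genes before it, 15 belong to the Fbxw family of F-box genes. The genes after it are Cdc25a, a cell cycle phosphatase, and Map4, a microtubule-associated protein. This order gives no distances, so it does not place these genes relative to the border. After quantile normalization the 15 min border was at 225 kb and the others stayed where they were. With 0 at the chromosome median the borders lay at 75, 250, 275 and 100 kb in the same order, so the untreated track then reached nearly as far as the 15 min track.

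S100a8 had its border 80 kb above it in progenitors, 130 kb in untreated neutrophils, 430 kb after 15 min and 155 kb after 30 min. From 100 to 200 kb above the gene the mean PC1 was -0.638 in progenitors, -0.395 in untreated neutrophils, 0.244 after 15 min and 0.0727 after 30 min. Farther out, from 300 to 400 kb, the 15 min mean was 0.535, and the others were below 0. After quantile normalization the border was at 130 kb in all of the neutrophil tracks, against 80 kb in progenitors. The distance of 430 kb after 15 min was thus not kept under that normalization. The step from 80 to 130 kb between progenitors and untreated neutrophils was the same under it. With 0 at the chromosome median that step ran from 130 to 155 kb. RefSeq lists S100a9, the partner subunit, directly above S100a8, and 11 of the next 20 protein-coding genes are Sprr genes of the skin barrier.

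Mpo had A values until 490 kb above it in progenitors, 465 kb after 15 min and 440 kb after 30 min, and until 115 kb in untreated neutrophils. There a single 25 kb bin dipped to -0.0515 before A values resumed. Between 100 and 200 kb above Mpo the mean PC1 was 0.889 in progenitors, 0.156 in untreated neutrophils, 0.565 after 15 min and 0.568 after 30 min. The dip was thus deepest in untreated neutrophils, although it crossed 0 in 1 bin only and not when 0 was set at the chromosome median, which put the border at 440 kb. RefSeq places the peroxidase genes Lpo and Epx among the first 3 genes above Mpo, and 3 of the first 6 are olfactory receptor genes.

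Within 150 kb of a border lay 2 of the 8 genes in progenitors, 3 in untreated neutrophils, 0 after 15 min and 1 after 30 min. Of all A bins, 25.6%, 36.4%, 27.1% and 23.5% lay as near. Ltf was 305 to 430 kb and Elane 375 to 400 kb from the nearest border over the tracks, and Ngp was 620 to 820 kb away. Lcn2 and Mmp9 were over 1 Mb from any border in every track.

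**Figure D3:**
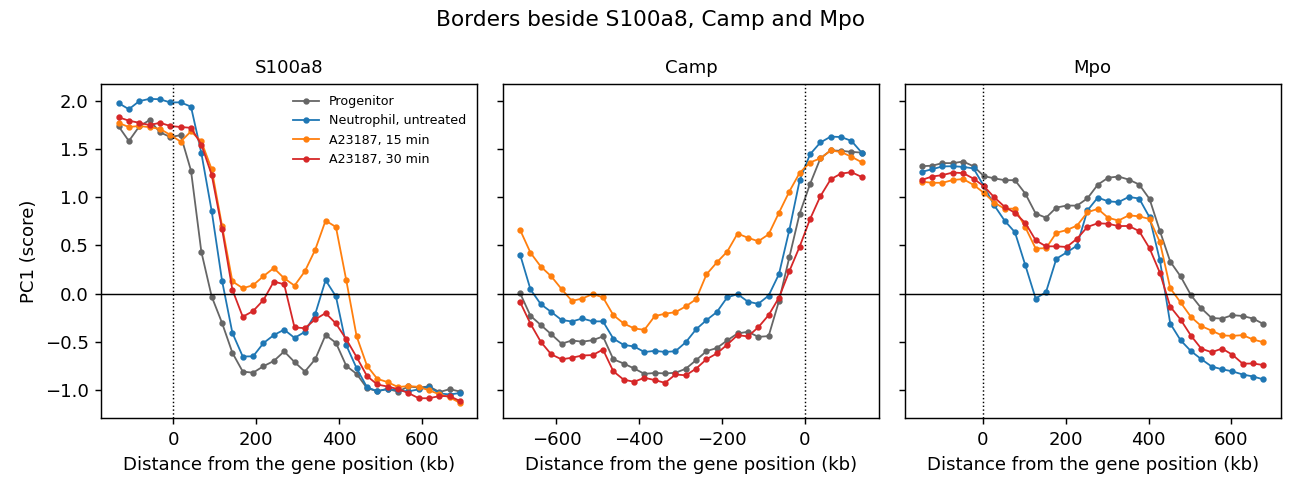
PC1 (score) by distance from the gene position (kb) beside S100a8, Camp and Mpo, with a point for every 25 kb bin and a line for each of the 4 tracks. The dotted line marks the gene position. The progenitor line falls first beside S100a8, the 15 min line lies highest below Camp, and the untreated line dips to -0.0515 above Mpo.

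In the authors' list of positive domains of untreated neutrophils, the 8 genes fell into 6 domains. The S100a8 domain was 3.6 Mb long, the domain shared by Camp, Ngp and Ltf 1.575 Mb, the Elane domain 2.175 Mb, the Mpo domain 1.875 Mb, the Mmp9 domain 4.925 Mb and the Lcn2 domain 12.3 Mb. All were longer than the domain that holds the median base of the 1486 positive domains, which was 1400 kb. By the score that the authors gave each domain, the S100a8 domain stood at percentile 99.7 with 1.60, the chromosome 9 domain at percentile 98.3 with 1.501 and the Mpo domain at percentile 66.8 with 1.02. The Mpo domain ends at the dip in the untreated track.

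Against its surroundings, the bins between 100 kb and 1 Mb away on either side, the median gene was higher by 0.626 in progenitors, 0.578 in untreated neutrophils, 0.385 after 15 min and 0.606 after 30 min. S100a8 stood out most in untreated neutrophils, by 1.26, and Lcn2 by only 0.0812, with 100% of the bins within 1 Mb of Lcn2 and of Mmp9 in A. Camp went from 0.241 above its surroundings after 15 min to -0.0538 after 30 min. With medians over bins the median contrast was smaller, at 0.0839, 0.142, 0.0490 and 0.113.

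**Figure D4:**
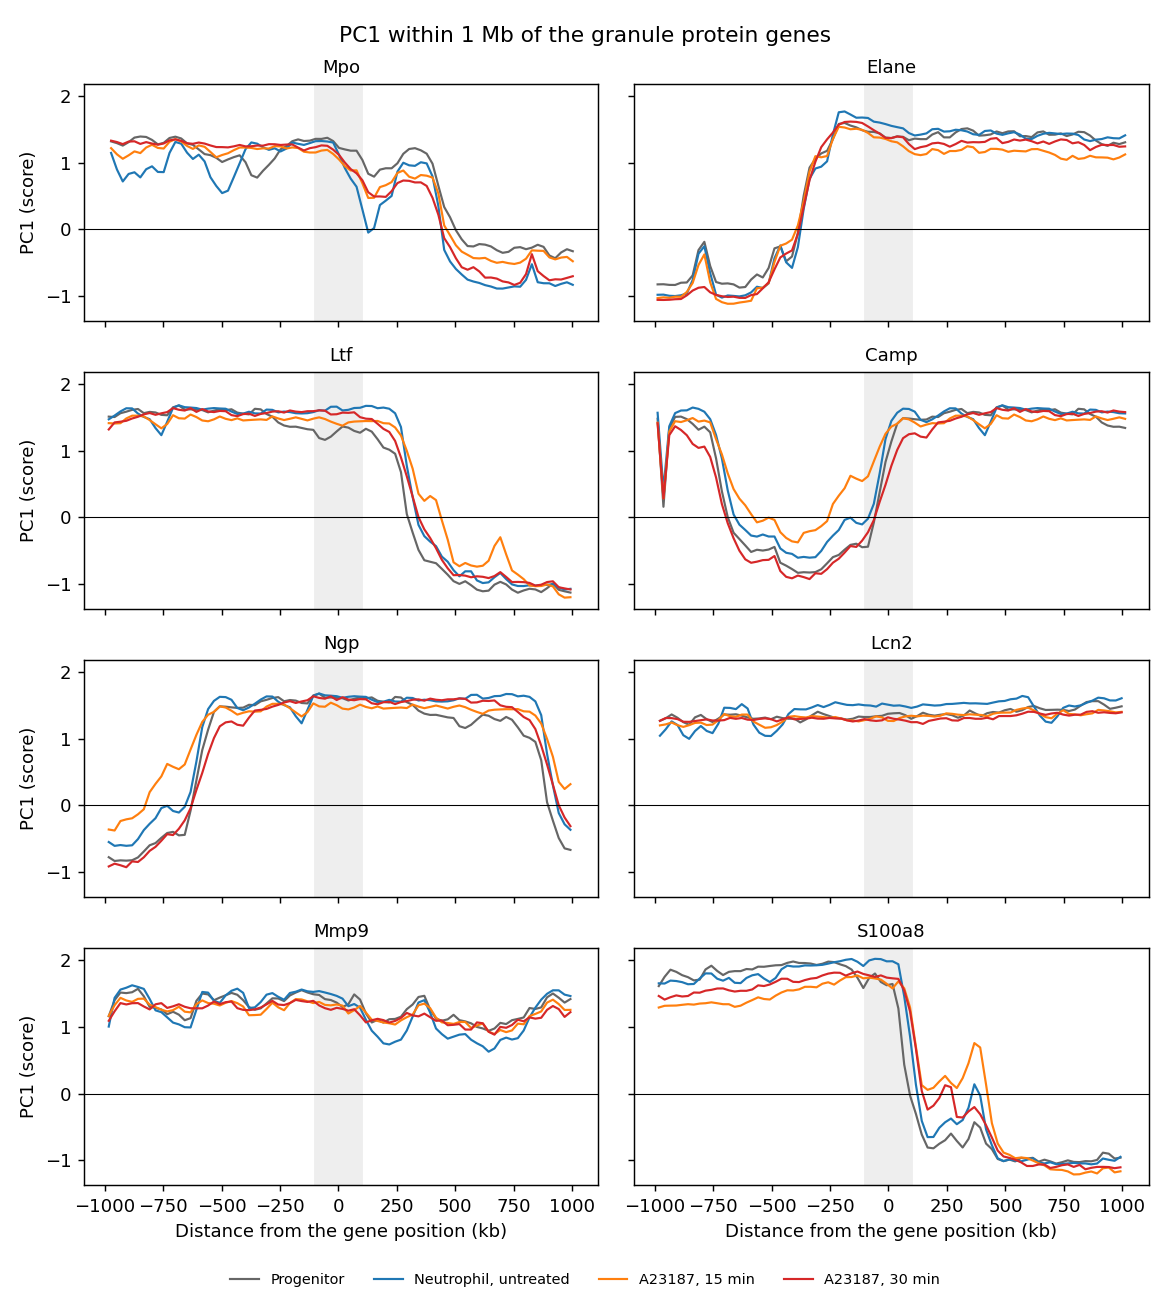
PC1 (score) of each of the 4 tracks within 1 Mb of the 8 genes, by distance from the gene position (kb), with the 100 kb on either side shaded grey. Lcn2 and Mmp9 lie in A throughout, while a B region begins within 1 Mb of each of the other 6 genes.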

How the data were processed

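In situ Hi-C maps of ECOMG progenitors, untreated neutrophils and neutrophils given A23187 for 15 or 30 min were used. The PC1 scores were deposited by the authors. The submitters' processing notes name HiC-Pro, Bowtie2, HOMER and the build mm9, without versions, and settings are not given here. Scores stand every 25 kb and describe 50 kb each, so adjacent bins overlap. The authors' positive and negative domain scores describe the untreated track. Depth is unknown, and no interval that needs counts is given.

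Bins with a value in all 4 tracks on 20 chromosomes were used. Window means, differences, switches and borders were computed with Python 3.11.15, pandas 2.3.3 and NumPy 2.4.6. All 8 genes are named in each track. Level-matched changes subtract the mean change of bins at a like level, in 10 groups by mean PC1 on the chromosome. Percentiles are ranks among all windows of equal width. The steps were checked on simulated data. Members, lists and limits were chosen with earlier results of these data known. The other alternatives tried were windows of 50 or 200 kb, the gene's bin alone, medians, every second bin, quantile normalization, 0 at the chromosome median, leaving out chromosome 9, other limits and flanks of 500 kb. Alternatives for borders were added after seeing the data.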

Additional observations from a re-analysis of the deposited data

Results flagged for a closer look

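The change at Camp from untreated neutrophils had opposite signs at both times, 0.115 after 15 min and -0.438 after 30 min, so thafter 30 min minus 15 min was -0.554. The difference was not tested, since each time has 1 track. In the bin at the gene position both changes were negative, -0.0849 after 15 min and -0.674 after 30 min, and with 0 at the chromosome median they were -0.168 and -0.511.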

How the results depend on the processing

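No paired analysis was possible because each group is 1 track, pooled over replicates or from 1 replicate, and no replicate was left out for the same reason. Of 1244 values under alternatives, 282 moved by more than the spread over bins (for borders by 1 bin or more, for counts by over 1.5 times). The sign turned in 64 values, of which 49 were changes, and 0 of these had reached the limit of 0.25. The depth is unknown, and so is what it limits.

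The median level was 1.41 in untreated neutrophils with 200 kb windows and 1.44 after 15 min after quantile normalization. With 0 at the chromosome median it was 1.65 in progenitors, 1.89 in untreated neutrophils, 1.48 after 15 min and 1.65 after 30 min. Without the chromosome 9 genes, all of the 5 remaining genes were above 0 in every track.

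From progenitor to untreated neutrophil, the count higher by the limit was 1 with a limit of 0.5 or without chromosome 9, and 3 for the gene's bin, medians, every second bin, 0 at the chromosome median, level-matched or a limit of 0.15. The count lower was 0 with 50 kb windows, the gene's bin, medians or a limit of 0.5.

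From untreated neutrophils to 15 min, the median change was -0.0740 with 200 kb windows, 0.00460 after quantile normalization, -0.0170 level-matched and -0.355 with 0 at the chromosome median. The count lower was 1 with 50 kb windows or medians, 2 for the gene's bin, 5 with a limit of 0.15 and 6 with 0 at the chromosome median.

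From untreated neutrophils to 30 min, the median change was -0.0784 with 200 kb windows, -0.0459 after quantile normalization and -0.0565 level-matched. The count lower was 2 with medians or 0 at the chromosome median, 4 with a limit of 0.15, and 0 with a limit of 0.5 or without chromosome 9.

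From 15 to 30 min, the median change was -0.0371 after quantile normalization, -0.0157 level-matched and 0.219 with 0 at the chromosome median. The last of these gave 2 genes higher, and leaving out chromosome 9 gave 0 lower.

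From progenitor to 15 min, the median change was 0.0224 after quantile normalization, 0.00736 level-matched and -0.200 with 0 at the chromosome median. The count higher was 1 with 50 kb windows or without chromosome 9, and 0 for the gene's bin, medians, a limit of 0.5 or 0 at the chromosome median. It was 3 after quantile normalization or with a limit of 0.15. The count lower was 1 with every second bin or a limit of 0.15, and 3 with 0 at the chromosome median.

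From progenitor to 30 min, the count higher was 1 with 50 kb windows, the gene's bin, medians or without chromosome 9, and 0 with a limit of 0.5. The count lower was 1 with 50 kb windows, the gene's bin, medians or quantile normalization, and 2 with a limit of 0.15.

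The median contrast with the surroundings was 0.471 in progenitors with 200 kb windows, 0.469 after 15 min after quantile normalization, and 0.528 in progenitors and 0.502 after 30 min without chromosome 9. With flanks of 500 kb it was 0.277, 0.322, 0.220 and 0.242 in progenitors, untreated neutrophils, after 15 min and after 30 min. With medians over bins it was 0.0839, 0.142, 0.0490 and 0.113. Apart from the smaller number of genes without chromosome 9 and the limits themselves, the cause of these moves was not tested.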
